A study of Mus musculus with 16 samples.

Results

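The genes described here are the 7 cyclin-dependent kinase (CDK) inhibitor genes Cdkn1a, Cdkn1b, Cdkn1c, Cdkn2a, Cdkn2b, Cdkn2c and Cdkn2d and the 3 Gadd45 genes Gadd45a, Gadd45b and Gadd45g. They were chosen by name, as the rows of the count table that carry their mouse Entrez gene numbers, and make 10 of its 19665 genes. All 10 reached a scaled level of 1 CPM (a gene's counts relative to the library's total) in at least 2 libraries and were among the 13172 genes tested.

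Cell cycle progression is driven by cyclins bound to CDKs. The Cip/Kip inhibitors p21 (Cdkn1a), p27 (Cdkn1b) and p57 (Cdkn1c) bind cyclin-CDK complexes broadly, whereas the INK4 inhibitors p16 (Cdkn2a), p15 (Cdkn2b), p18 (Cdkn2c) and p19 (Cdkn2d) bind the cyclin D partners Cdk4 and Cdk6 and so hold the retinoblastoma protein in its growth-restraining form. TGFb is known to raise Cdkn2b and Cdkn1a in many epithelial cells through Smad proteins, and p53 is the classical activator of Cdkn1a and Gadd45a. Gadd45 proteins are small stress-induced proteins that bind PCNA, the Cdk1-cyclin B1 complex and the stress kinase kinase Map3k4.

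The libraries came from breast cancer cells of MMTV-PyMT mice on the FVB/N background, in which a mammary tumour virus promoter drives the polyoma middle T oncogene in the mammary epithelium. The tumours had grown in mammary gland 2/3. Line 631 was Pygo2+/+ and is called WT. Line 828 carried the A342E knock-in on both alleles of Pygo2 and is called AE. Pygo2 encodes a co-factor of Wnt and beta-catenin transcription with a finger domain that binds histone H3, and the series title names that histone interaction. Both lines carried the PyMT oncogene and grew in medium with 10% serum. Each line was treated with TGFb at 2 ng/ml for 4 days or with Wnt3a at 100 ng/ml for 3 days, beside untreated cells of the same duration. That gave 8 groups of 2 libraries, described as biological duplicates. Each genotype was 1 line, so genotype and line cannot be told apart.

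Library totals ran from 20530538 to 26191846 counts. Pygo2 was at 46.3 to 67.7 CPM in the 16 libraries, which checks no label because the knock-in changes a residue and not the transcript's presence. Of the 9 epithelial markers, Epcam, Cdh1, Krt7, Krt8 and Krt18 were at 124 CPM or more in every library. Cldn7 ran from 15 to 106 CPM, Cldn3 from 2.32 to 98.4 CPM and Elf5 from 0.295 to 616 CPM, and Krt19 was at most 0.636 CPM. Of the immune markers, 4 of 7 were in the table and summed to at most 6.46 CPM. The 5 endothelial markers summed to at most 2.92 CPM, and 2 of 3 adipocyte markers, those in the table, to at most 0.0825 CPM. The 6 fibroblast markers summed to 5 to 49.8 CPM in WT and 165 to 354 CPM in AE. Of these, Pdgfra ran from 1.48 to 164 CPM, Col1a1 from 1.41 to 166 CPM, Col3a1 from 0 to 58 CPM and Pdgfrb from 0 to 41 CPM. Dcn ran from 0 to 10.5 CPM with a median of 0.0424 CPM, and Lum was at most 0.124 CPM. Duplicates of the 3-day groups were mostly further apart than those of the 4-day groups, with a standard deviation (SD) of the log2 ratio between duplicates over all genes of 0.51 to 1 against 0.31 to 0.53. Across genes, Spearman's rho of that ratio (replicate 1 over replicate 2) with GC content was −0.74 to −0.64 in the WT groups, 0.47 and 0.63 in the untreated AE groups and 0.011 and 0.22 in the treated ones. Both replicate 2 libraries of the 3-day AE groups stood apart in Lars2, at 0.128% and 0.157% of counts against at most 0.0359% in the others.

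Values below are CPM after scaling for library composition, listed for replicate 1 and then replicate 2. A log2 fold change comes with its standard error (SE), and a gene passed where the Benjamini-Hochberg adjusted p of edgeR's quasi-likelihood test over all 13172 genes was under 0.05. These p-values measure the spread between the deposited libraries.

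TGFb and Wnt3a raised 3 of the 10 genes in both lines, namely Cdkn1a, Cdkn2b and Gadd45a. Of all genes tested, 49 (0.372%) passed upward in all 4 treatments. TGFb in WT raised 5 of the 10 and lowered 3, where 14.7% of all genes tested passed upward and 12.9% downward. TGFb in AE raised 4 and lowered 2, against 6.09% and 4.32% of all genes. Wnt3a in WT raised 4 and lowered 2, against 2.26% and 2.02%. Wnt3a in AE raised 3, against 4.59%. None of the 10 passed downward there with edgeR or DESeq2, where 4.74% of all genes did, and 1 had an unadjusted p under 0.05 downward. The median log2 fold change of the 9 genes other than Cdkn1c, which was near 0 in WT, was 1.95 with TGFb in WT, 1.64 with TGFb in AE, 1.46 with Wnt3a in WT and 0.21 with Wnt3a in AE. The corresponding medians over all genes tested were 0.06, -0.00, 0.01 and -0.03. With Cdkn1c included, the AE medians were 1.14 and 0.16.

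**Figure D1:**
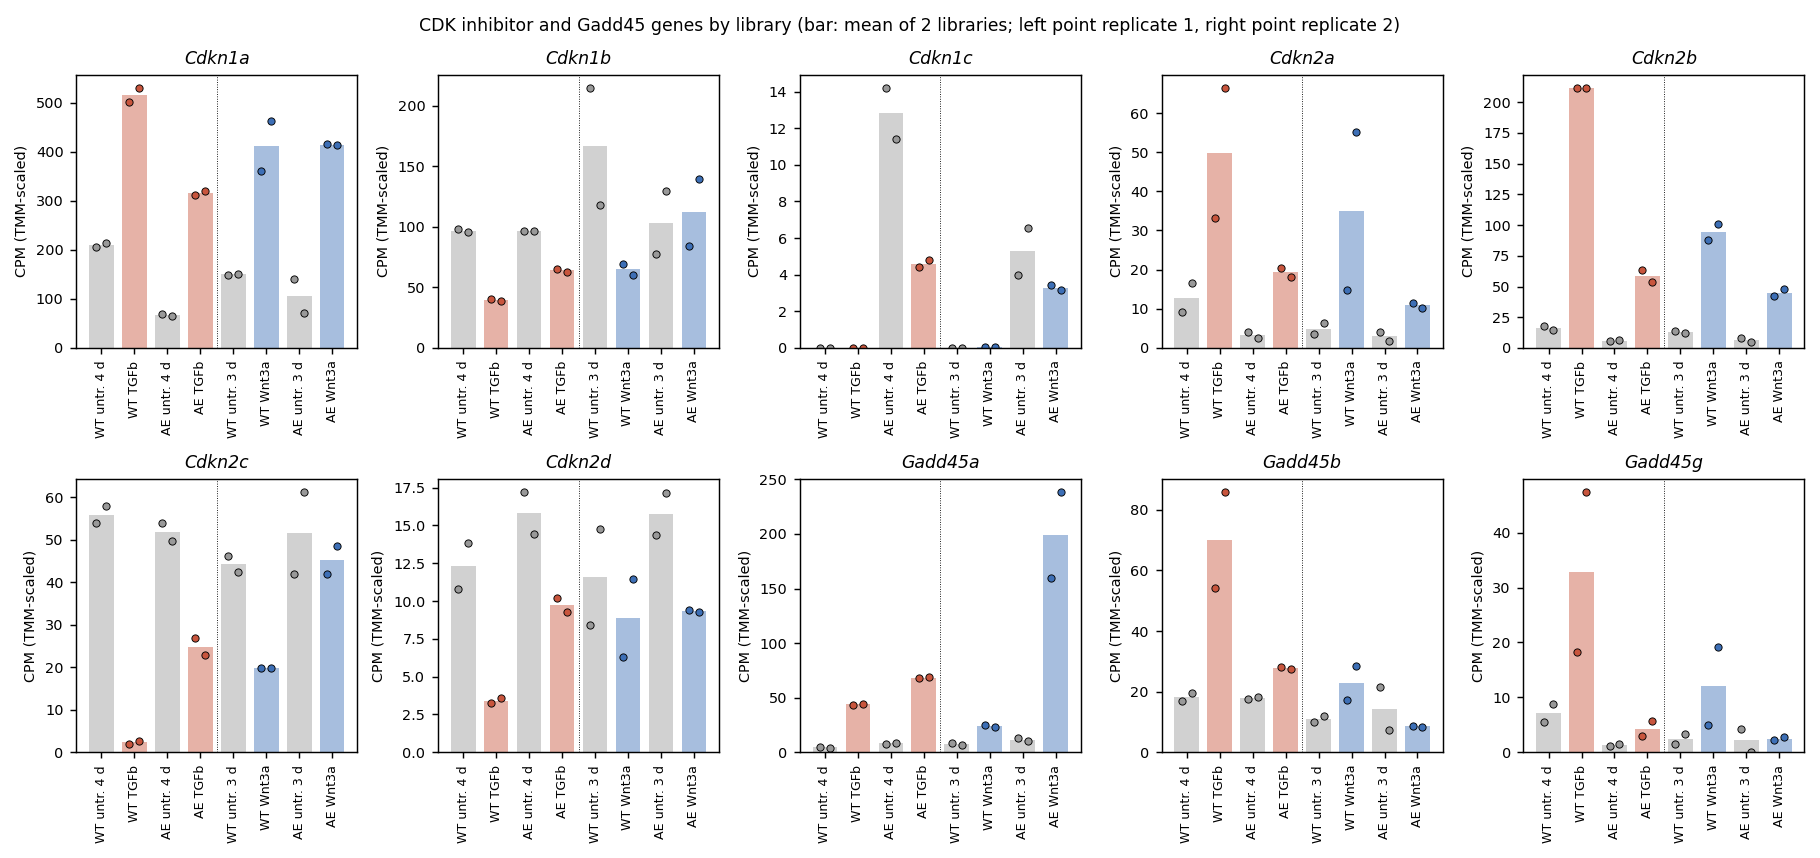
Scaled CPM (linear axis from 0) of the 10 genes in all 16 libraries; bars are means of 2 libraries and points the single libraries, with the 4-day TGFb experiment left and the 3-day Wnt3a experiment right of the dotted line. Cdkn1a, Cdkn2b and Gadd45a are higher in every treated library than in every untreated library of the same line and duration, and Cdkn1c is at 0.0446 CPM or less in all WT libraries.

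Cdkn1a (Entrez 12575) encodes p21 and had the highest untreated level per kilobase of transcript of the 10 in both lines. In WT it was at 205 and 214 CPM untreated and at 500.5 and 531 CPM after TGFb. AE cells had 69.9 and 65.6 CPM untreated and 312 and 321 CPM after TGFb. The groups did not overlap in either line, and AE started lower and also ended lower. The log2 fold change was 1.30 ± 0.26 in WT (adjusted p = 0.0027) and 2.22 ± 0.27 in AE (adjusted p = 0.00047).

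Wnt3a took Cdkn1a in WT from 148 and 152 CPM to 360 and 463 CPM. In AE it took the gene from 139.8 and 71.6 CPM to 416 and 413.5 CPM, so that the treated libraries of both lines lay in one range. The log2 fold change was 1.46 ± 0.26 in WT (adjusted p = 0.0093) and 1.97 ± 0.27 in AE (adjusted p = 0.00065). Without WT Wnt3a replicate 2 the WT value was 1.26 and missed the threshold (adjusted p = 0.051), and with the 3-day libraries fitted alone the adjusted p was 0.21. The difference in response, AE minus WT, was 0.93 for TGFb (95% interval 0.13 to 1.72, adjusted p = 0.16) and 0.52 for Wnt3a (−0.28 to 1.31, adjusted p = 0.43), and neither passed. Both passed once GC content and length were corrected for, at 0.96 (adjusted p = 0.032) and 1.03 (adjusted p = 0.048), and with a replicate block added to it (adjusted p = 0.02 and 0.03). With the 4-day libraries fitted alone the TGFb difference also passed (0.91, adjusted p = 0.00065). The Wnt3a difference did not pass with the 3-day libraries fitted alone (0.51, adjusted p = 0.73). It was 0.08 without both replicate 2 libraries of the 3-day AE groups, and 0.11 to 1.08 when 1 library was left out.

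The gene lies at chr17:29090979-29100722 (mm10, plus strand), and RefSeq lists 2 starts for it. The stretches upstream of both are shown because Cdkn1a rose in all 4 treatments. They are from RefSeq on GRCm38.p6, the assembly named mm10, 5′ to 3′ on the plus strand. The first ends before the first annotated exon of the gene. The second lies within the span of the gene and holds no annotated exon of Cdkn1a. Capitals mark matches on either strand to CAGAC (a Smad binding core), GGGCGG (an Sp1 box) and, in the first, the p53 consensus with at most 1 mismatch.
Cdkn1a, first start, chr17:29090729-29090975: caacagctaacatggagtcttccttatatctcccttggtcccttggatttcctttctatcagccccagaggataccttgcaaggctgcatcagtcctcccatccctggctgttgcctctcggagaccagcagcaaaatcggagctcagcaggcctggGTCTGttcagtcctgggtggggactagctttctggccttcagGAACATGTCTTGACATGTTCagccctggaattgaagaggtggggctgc
Cdkn1a, second start, chr17:29093519-29093768: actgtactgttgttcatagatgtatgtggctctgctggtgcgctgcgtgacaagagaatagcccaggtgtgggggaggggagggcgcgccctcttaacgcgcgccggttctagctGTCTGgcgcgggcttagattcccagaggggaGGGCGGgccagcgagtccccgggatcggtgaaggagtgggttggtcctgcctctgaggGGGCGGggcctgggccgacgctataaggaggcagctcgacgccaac
The first stretch holds 1 Smad core and, from 51 to 32 bases before the start, the p53 match. That search was made after the sequence had been seen. Such a match was found in 25 of 32851 RefSeq promoter windows (250 bases each, 0.08%). The second holds 1 Smad core and 2 Sp1 boxes, which 42.2% and 32.7% of all windows hold at least once. A further transcript, AC167363.2, is annotated over Cdkn1a on the other strand, with an exon that overlaps the second stretch. Whether the counting used strand is not given in the sources used here.

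Cdkn1b (Entrez 12576, chr6:134920401-134925525) encodes p27 and moved the other way. TGFb in WT lowered it from 98.2 and 95.5 CPM to 40.3 and 38.7 CPM (−1.29 ± 0.32, adjusted p = 0.0091). AE cells had 96.9 and 96.4 CPM untreated, close to WT, and 65.4 and 62.9 CPM after TGFb. The AE groups did not overlap, but the change did not pass (−0.59 ± 0.31, adjusted p = 0.31). With the 4-day libraries fitted alone, where the spread was smaller, the AE value of −0.60 passed (adjusted p = 0.0011), and with the GC content and length correction it passed at −0.77 (adjusted p = 0.024). The difference in the TGFb response was 0.70 (95% interval −0.26 to 1.66, adjusted p = 0.46), and 0.69 with a call in the 4-day libraries alone (adjusted p = 0.0042). The WT call was lost without WT TGFb replicate 1 (adjusted p = 0.056) or replicate 2 (adjusted p = 0.07).

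In the 3-day experiment the duplicates of Cdkn1b were far apart. In WT it was at 215 and 118 CPM untreated and at 69.4 and 60.3 CPM after Wnt3a (−1.36 ± 0.32, adjusted p = 0.033). AE cells had 77.5 and 129.6 CPM untreated and 84.4 and 139.9 CPM after Wnt3a, with overlapping groups and an adjusted p of 0.89. Without WT untreated 3-day replicate 1 the WT value was −0.86 (adjusted p = 0.22), and without WT Wnt3a replicate 2 it was −1.26 (adjusted p = 0.2). With the 3-day libraries alone the adjusted p was 0.33. AE minus WT, the Wnt3a responses differed by 1.47 (95% interval 0.51 to 2.44, adjusted p = 0.13). DESeq2 called that difference and edgeR did not, except without WT untreated 3-day replicate 2, where it was 1.84 (adjusted p = 0.03).

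Cdkn1c (Entrez 12577, chr7:143458339-143461059), an imprinted gene that encodes p57, was at 3.14 CPM or more in every AE library and had at most 1 count in any WT library. In AE it was at 14.2 and 11.4 CPM untreated and at 4.41 and 4.78 CPM after TGFb. In the 3-day experiment it was at 4 and 6.56 CPM untreated and at 3.44 and 3.14 CPM after Wnt3a. In WT, 6 of the 8 libraries had 0 counts and both Wnt3a libraries had 1 count. The untreated AE mean of 9.05 ± 4.62 CPM (SD, n = 4) was at least 276-fold higher than the level of 3 counts over the 4 untreated WT libraries, 0.033 CPM. TGFb lowered Cdkn1c in AE (−1.48 ± 0.33, adjusted p = 0.021). The adjusted p was 0.17, 0.15, 0.17 and 0.087 without AE TGFb replicate 1, AE TGFb replicate 2, AE untreated 4-day replicate 1 and AE untreated 4-day replicate 2, and 0.052 with the GC content and length correction. The Wnt3a value in AE was −0.68 ± 0.33 (adjusted p = 0.31). An antisense transcript, Gm44732, is annotated over the gene. The summed fibroblast markers also separated the lines, at 5.98 to 10.6 CPM in untreated WT and 216 to 354 CPM in untreated AE. Of the 5 fibroblast markers tested, 4 passed as higher in untreated AE and 0 as lower (median log2 fold change 4.99). Of all genes, 27.4% passed upward and 26.4% downward there. Lum was at most 0.124 CPM in any library, and Dcn was at a median of 0.0424 CPM. The part of these markers in the Cdkn1c difference was not tested. In bulk libraries more cells of a type and more RNA per cell cannot be told apart.

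Across the Cip/Kip genes, Cdkn1a took a larger share after TGFb in both lines. Per kilobase of the longest annotated transcript, Cdkn1a made up 82.1% and 83.1% of the summed Cip/Kip level in untreated 4-day WT and 96.5% and 96.8% after TGFb. In AE it made up 53.9% and 53.7% untreated and 90% and 90.4% after TGFb.

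Cdkn2b (Entrez 12579, chr4:89306289-89311032, minus strand) encodes p15, a classical TGFb target. It was the INK4 gene that passed in all 4 treatments. TGFb took it in WT from 17.9 and 15 CPM to 212 and 211.7 CPM. In AE it went from 5.59 and 6.36 CPM to 63.1 and 54 CPM. The treated AE libraries stayed below the treated WT libraries, as the untreated ones did. The log2 fold changes were 3.69 ± 0.24 in WT (adjusted p = 1.2e-06) and 3.29 ± 0.24 in AE (adjusted p = 2.8e-05). The difference in response was −0.40 (95% interval −1.06 to 0.27, adjusted p = 0.58).

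Wnt3a raised Cdkn2b in WT from 13.6 and 12.1 CPM to 88 and 101 CPM (2.88 ± 0.23, adjusted p = 7.5e-05). In AE it rose from 7.8 and 5.11 CPM to 42.4 and 47.9 CPM (2.80 ± 0.23, adjusted p = 2.6e-05). No treated library overlapped an untreated one. The responses of the lines differed by −0.07 (95% interval −0.75 to 0.60, adjusted p = 0.91). All 4 calls of Cdkn2b held in each alternative fit that was run for them, with adjusted p at most 0.019.

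The stretch upstream of Cdkn2b is shown because the gene rose in all 4 treatments. It is from RefSeq on GRCm38.p6, 5′ to 3′ on the minus strand, ending before the first annotated exon. Capitals mark the Smad core CAGAC.
Cdkn2b, chr4:89311040-89311282: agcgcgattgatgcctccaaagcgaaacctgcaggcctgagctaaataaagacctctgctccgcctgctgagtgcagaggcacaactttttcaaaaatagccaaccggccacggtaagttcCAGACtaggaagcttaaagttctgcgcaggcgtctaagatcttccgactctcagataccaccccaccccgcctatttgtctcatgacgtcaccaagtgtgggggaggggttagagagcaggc
The core starts 129 bases before the start of transcription. Neither GGGCGG nor CTTTGA, a core of the TCF site through which Wnt and beta-catenin act, was found in the window on either strand. CTTTGA is in 13.8% of all windows, and in none of the 12 windows of the 9 genes that had a RefSeq promoter entry.

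Cdkn2a (Entrez 12578, chr4:89274473-89294619) lies next to Cdkn2b, 11669 bases away. It encodes both p16 and, from another start and reading frame, the p53 activator p19Arf, and a count per gene does not separate them. TGFb took Cdkn2a in WT from 9.13 and 16.6 CPM to 33.1 and 66.5 CPM (1.95 ± 0.59, adjusted p = 0.027). In AE it went from 3.95 and 2.62 CPM to 20.5 and 18.1 CPM (2.56 ± 0.62, adjusted p = 0.02). Treated and untreated libraries did not overlap. The AE call was lost without any 1 of its 4 libraries, with an adjusted p of 0.096 without AE TGFb replicate 1, 0.081 without AE TGFb replicate 2, 0.11 without AE untreated 4-day replicate 1 and 0.19 without replicate 2. The WT call was lost without WT TGFb replicate 2 (1.37, adjusted p = 0.21), WT untreated 4-day replicate 1 (1.58, adjusted p = 0.2) or replicate 2 (2.45, adjusted p = 0.056).

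With Wnt3a, Cdkn2a in WT went from 3.69 and 6.24 CPM to 14.8 and 55.2 CPM (2.81 ± 0.62, adjusted p = 0.025). Without WT Wnt3a replicate 2 the value was 1.57 (adjusted p = 0.24), and without WT untreated 3-day replicate 1 it was 2.49 (adjusted p = 0.15). With the 3-day libraries alone the adjusted p was 0.18. In AE the gene was at 4 and 1.86 CPM untreated and at 11.5 and 10.3 CPM after Wnt3a (1.89 ± 0.61, adjusted p = 0.079). The AE value passed with the GC content and length correction (2.28, adjusted p = 2e-04), with DESeq2 (1.90, adjusted p = 0.013) and with no filter on low counts (1.90, adjusted p = 0.046). It did not pass with the 3-day libraries alone (1.89, adjusted p = 0.25), and it was 1.49 without both replicate 2 libraries of the 3-day AE groups.

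Cdkn2c (Entrez 12580, chr4:109660876-109666756) encodes p18 and showed the largest tested difference in response between the lines among the 9 genes other than Cdkn1c. TGFb in WT lowered it from 53.9 and 57.8 CPM to 1.97 and 2.69 CPM. In AE it fell only to 26.7 and 22.9 CPM, from 54 and 49.7 CPM. The lines started at overlapping levels, and after TGFb no AE library was near a WT one. The log2 fold changes were −4.58 ± 0.26 in WT (adjusted p = 8.1e-07) and −1.06 ± 0.22 in AE (adjusted p = 0.011). The difference was 3.52 ± 0.33 (95% interval 2.79 to 4.24, adjusted p = 8.5e-05), where 8.83% of all genes passed this test. Cdkn2c was the 1 gene of the 10 to pass it, and it passed in all 18 alternative fits, with values from 3.28 to 3.76. The AE fall lost its call when any 1 of its 4 libraries was left out, with an adjusted p of 0.064 without AE TGFb replicate 1, 0.13 without AE TGFb replicate 2, 0.093 without AE untreated 4-day replicate 1 and 0.061 without replicate 2.

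Genes of proliferating cells moved in the same comparisons. All 10 proliferation markers fell with TGFb in WT (median log2 fold change −4.19), against 12.9% of all genes. In AE 5 of 10 fell (median −1.28), against 4.32% of all genes. The difference between the lines passed for 9 of the 10 (median 2.86), against 8.83% of all genes. Aurkb, a mitotic kinase, went from 70.8 ± 3.6 to 2.82 ± 0.11 CPM in WT and from 48.5 ± 4.5 to 18.6 ± 0.099 CPM in AE (mean ± SD, n = 2). The part of proliferation in the Cdkn2c values was not tested.

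With Wnt3a, Cdkn2c in WT fell from 46.1 and 42.3 CPM to 19.8 and 19.8 CPM (−1.16 ± 0.23, adjusted p = 0.013). AE cells had 41.9 and 61.2 CPM untreated and 42 and 48.6 CPM after Wnt3a, with overlapping groups (adjusted p = 0.73). The WT call was lost without WT Wnt3a replicate 2 (adjusted p = 0.068), without WT untreated 3-day replicate 1 (adjusted p = 0.051) and with the 3-day libraries alone (adjusted p = 0.25). The difference in response was 0.97 (95% interval 0.28 to 1.66, adjusted p = 0.16), which DESeq2 called and edgeR did not.

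Cdkn2d (Entrez 12581, chr9:21288459-21291421) encodes the INK4 protein p19. TGFb lowered it in WT from 10.8 and 13.8 CPM to 3.24 and 3.59 CPM (−1.85 ± 0.35, adjusted p = 0.0017). AE cells had 17.2 and 14.4 CPM untreated and 10.2 and 9.25 CPM after TGFb, without overlap but short of the threshold (−0.70 ± 0.33, adjusted p = 0.24). The AE change passed with the GC content and length correction (−0.74, adjusted p = 0.039), with the block added to it (adjusted p = 0.045) and in the 4-day libraries alone (−0.71, adjusted p = 0.012). The difference in the TGFb response, 1.14 (95% interval 0.12 to 2.17, adjusted p = 0.19), passed in the same fits, at 1.26 (adjusted p = 0.023), 1.26 (adjusted p = 0.028) and 1.13 (adjusted p = 0.0099). Wnt3a gave no call in either line in the reported fit, and in WT the value passed with the GC content and length correction (−0.90, adjusted p = 0.026) and with the block added (−0.91, adjusted p = 0.032). In WT the libraries overlapped, at 8.38 and 14.8 CPM untreated and 6.29 and 11.5 CPM treated. In AE they did not, at 14.4 and 17.1 CPM untreated and 9.38 and 9.26 CPM treated (−0.76 ± 0.33, adjusted p = 0.22).

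The make-up of the INK4 family changed from Cdkn2c to Cdkn2b. Per kilobase, Cdkn2c was 41.5% and 37.4% of the summed INK4 level in untreated 4-day WT and 0.413% and 0.473% after TGFb. Cdkn2b went from 24.6% and 17.3% to 79.2% and 66.2%. In AE, Cdkn2c went from 51.5% and 53.3% to 12.5% and 12.4%, and Cdkn2b from 9.49% and 12.1% to 52.6% and 51.9%. After Wnt3a, Cdkn2b was 68.7% and 48.3% in WT and 45.5% and 47.7% in AE.

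**Figure D2:**
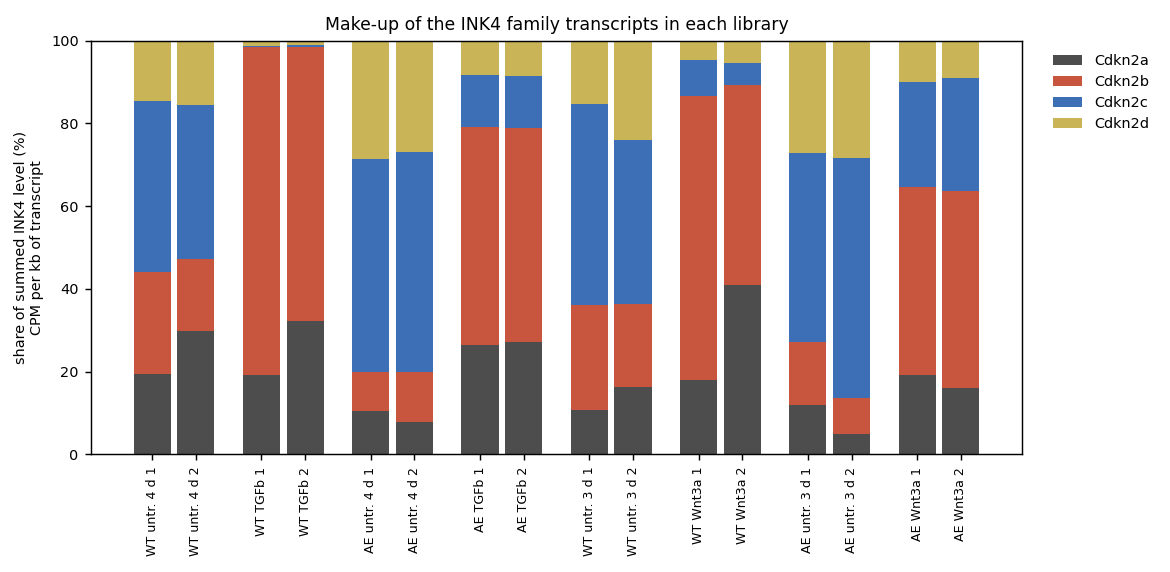
Share of each INK4 gene in the summed INK4 level of a library (CPM per kilobase of longest transcript), 1 column per library, with the replicate number at the end of each label. Cdkn2c takes 37.4% to 58.2% of the sum in untreated libraries and less in treated ones, down to 0.413% in WT after TGFb.

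Gadd45a (Entrez 13197, chr6:67035096-67037407, minus strand) rose in all 4 treatments. TGFb took it from 5.08 and 4.34 CPM to 43.4 and 44.4 CPM in WT (3.22 ± 0.25, adjusted p = 3.1e-06). In AE it went from 7.54 and 8.58 CPM to 67.7 and 69 CPM (3.08 ± 0.25, adjusted p = 3.7e-05). The TGFb responses of the lines differed by −0.14 (95% interval −0.84 to 0.57, adjusted p = 0.91). Wnt3a in WT took Gadd45a from 8.74 and 6.45 CPM to 25.1 and 23.5 CPM (1.68 ± 0.24, adjusted p = 0.0024).

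The Wnt3a response in AE was larger. There Gadd45a went from 12.7 and 10.6 CPM to 160.1 and 239 CPM (4.10 ± 0.26, adjusted p = 5.5e-06). These were the 2 highest values of the gene in the series, and no other group came above 69 CPM. AE minus WT, the responses differed by 2.42 ± 0.33 (95% interval 1.71 to 3.14, adjusted p = 0.0031), and Gadd45a was the 1 gene of the 10 to pass that test, which 2.34% of all genes passed. It passed in 18 of 19 alternative fits. The exception was the fit of the 3-day libraries alone, with the value still 2.42 but an adjusted p of 0.14, where only 8 of all genes passed. Without both replicate 2 libraries of the 3-day AE groups the difference was 1.95 (adjusted p = 0.038). Corrected for GC content and length, the WT response was 0.92 (adjusted p = 0.24), and its adjusted p was 0.09 with the 3-day libraries alone.

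The stretch upstream of Gadd45a is shown because of these 4 rises. It is from RefSeq on GRCm38.p6, 5′ to 3′ on the minus strand, ending before the first annotated exon. Capitals mark the Smad core, read as GTCTG on this strand, and the Sp1 box, read as CCGCCC.
Gadd45a, chr6:67037458-67037657: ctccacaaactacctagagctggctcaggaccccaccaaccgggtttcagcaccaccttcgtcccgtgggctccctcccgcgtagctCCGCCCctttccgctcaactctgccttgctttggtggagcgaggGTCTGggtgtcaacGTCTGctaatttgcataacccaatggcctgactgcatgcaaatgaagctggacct
It holds 2 Smad cores, which start 119 and 105 bases before the start of transcription, and 1 Sp1 box at 163 bases. Smad cores were not limited to genes that rose. The window of Cdkn2d, which fell with TGFb in WT, holds 2. Cdkn2c, which also fell there, has 1 upstream of 1 of its 2 starts. Gadd45g has 1, and Cdkn1b, Cdkn2a and Gadd45b have none. A link between the core and the responses was not tested. E230016M11Rik is annotated over Gadd45a on the other strand and had 0 to 15 counts in each library.

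**Figure D3:**
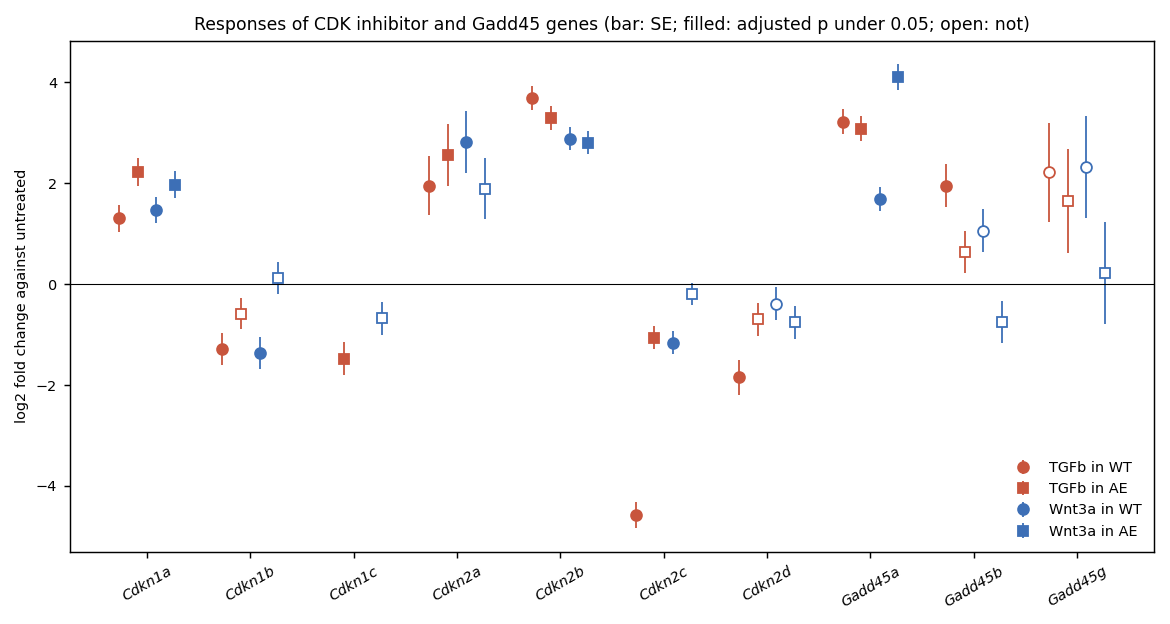
Log2 fold change (edgeR) of each gene against untreated cells of the same line and duration, with SE bars, circles for WT and squares for AE, and filled symbols for adjusted p under 0.05; Cdkn1c is drawn for AE only. Cdkn2b lies between 2.80 and 3.69 in all 4 treatments, Cdkn2c is lowest with TGFb in WT at −4.58, and Gadd45a is highest with Wnt3a in AE at 4.10.

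Gadd45b (Entrez 17873, chr10:80930091-80932204), a TGFb and stress-responsive member of the family, passed in 1 of 4 treatments. TGFb in WT raised it from 16.9 and 19.4 CPM to 54.1 and 85.9 CPM (1.95 ± 0.43, adjusted p = 0.0046). In AE it was at 17.7 and 18.1 CPM untreated and at 28 and 27.5 CPM after TGFb, without overlap between the groups (0.63 ± 0.42, adjusted p = 0.45). The lines had near-equal untreated values there, and the difference in response was −1.32 (95% interval −2.59 to −0.04, adjusted p = 0.23). With the 4-day libraries alone the AE change (0.62, adjusted p = 0.036) and the difference (−1.33, adjusted p = 0.0068) both passed. The WT call was lost without WT untreated 4-day replicate 1 (adjusted p = 0.053).

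Wnt3a values of Gadd45b in WT were 17.1 and 28.6 CPM against 10 and 11.9 CPM untreated (1.06 ± 0.42, adjusted p = 0.18). In AE they were 8.79 and 8.23 CPM against 21.5 and 7.22 CPM, so the untreated duplicates lay on both sides of the treated ones (−0.75 ± 0.42, adjusted p = 0.37). Without AE untreated 3-day replicate 1 the AE value was 0.24 (adjusted p = 0.89), and without replicate 2 it was −1.34 and passed (adjusted p = 0.033). The difference in the Wnt3a response was −1.81 (95% interval −3.11 to −0.52, adjusted p = 0.17). It passed without AE untreated 3-day replicate 2 (−2.40, adjusted p = 0.019) and without WT Wnt3a replicate 1 (−2.14, adjusted p = 0.045).

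Gadd45g (Entrez 23882, chr13:51846675-51848475) had duplicates up to 5.09 log2 units apart and passed no test of treatment in the reported fit. TGFb values in WT were 18.3 and 47.4 CPM against 5.43 and 8.81 CPM untreated (2.21 ± 0.98, adjusted p = 0.12). In AE they were 2.88 and 5.76 CPM against 1.18 and 1.56 CPM (1.64 ± 1.03, adjusted p = 0.42). In both lines the groups did not overlap. The WT value passed with the GC content and length correction (1.84, adjusted p = 0.027), with the block added to it (1.82, adjusted p = 0.031) and in the 4-day libraries alone (2.22, adjusted p = 0.0031). Wnt3a values in WT were 4.91 and 19.2 CPM against 1.41 and 3.41 CPM (2.31 ± 1.01, adjusted p = 0.22). The untreated 3-day AE duplicates had 104 and 3 counts, or 4.21 and 0.124 CPM, and the treated ones lay between them at 2.15 and 2.85 CPM (0.21 ± 1.01, adjusted p = 0.95).

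Within the family, Gadd45a took 33.4% and 60.1% of the summed per-kilobase Gadd45 level in untreated 3-day AE and 93.7% and 95.6% after Wnt3a. In WT its share was 44% and 29.7% untreated and 53.4% and 32.3% after Wnt3a, with overlap.

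**Figure D4:**
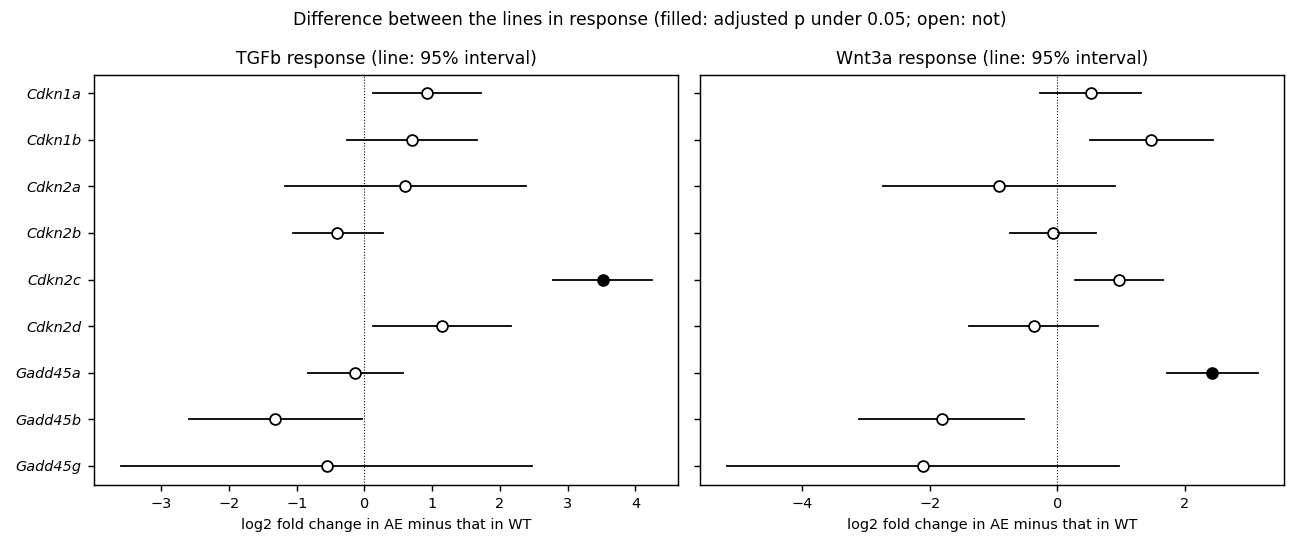
Difference in log2 fold change, AE minus WT, of each gene for TGFb (left) and Wnt3a (right), with 95% intervals and filled symbols for adjusted p under 0.05; Cdkn1c is left out because it was near 0 in WT. Cdkn2c stands at 3.52 for TGFb and Gadd45a at 2.42 for Wnt3a.

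In untreated cells, 2 of the 10 genes were higher in AE than in WT and 3 were lower, where 27.4% of all genes passed upward and 26.4% downward. The median log2 fold change of the 9 genes other than Cdkn1c was −0.34, against 0.01 over all genes, and −0.14 with Cdkn1c included. Cdkn1a was lower in AE, with 4 libraries at 65.6 to 139.8 CPM against 148 to 214 CPM in WT (−1.07 ± 0.18, adjusted p = 0.00038). Cdkn2b was lower, at 5.11 to 7.8 CPM against 12.1 to 17.9 CPM (−1.23 ± 0.16, adjusted p = 3.6e-05). Neither gene overlapped between the lines. Cdkn2a was lower with overlapping values (−1.37 ± 0.43, adjusted p = 0.017), and Gadd45a higher with overlapping values (0.69 ± 0.17, adjusted p = 0.0038). Cdkn1c was the other gene higher in AE. It had 0 counts in the untreated WT libraries and reached 1 CPM only in the 8 AE libraries. It was thus tested only because of its AE level, so its call adds no support.

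The line difference was firmer in the 4-day than in the 3-day cells. With the 4-day untreated libraries alone, Cdkn1a differed by −1.61 (adjusted p = 7.5e-07), Cdkn2b by −1.44 (adjusted p = 7.8e-05), Cdkn2a by −1.96 (adjusted p = 0.00031) and Gadd45a by 0.80 (adjusted p = 0.0062). With the 3-day ones alone the values were −0.47 (adjusted p = 0.48), −0.96 (adjusted p = 0.28), −0.73 (adjusted p = 0.48) and 0.64 (adjusted p = 0.45), and Cdkn1c alone passed. The Cdkn2a call was also lost without replicate 2 of AE 3-day (adjusted p = 0.061), AE 4-day (0.066), WT 3-day (0.051) or WT 4-day untreated cells (0.065). With the GC content and length correction Gadd45a was at −0.30 and did not pass (adjusted p = 0.47), Gadd45b was at −0.64 and passed (adjusted p = 0.011), and Gadd45g was at −2.39 and passed (adjusted p = 0.00084). In the reported fit Cdkn1b, Cdkn2c, Cdkn2d, Gadd45b and Gadd45g did not pass, with adjusted p of 0.2, 0.77, 0.16, 0.62 and 0.16. Gadd45g also passed with the 4-day untreated libraries alone, at −2.33 (adjusted p = 7.7e-05). Without WT untreated 3-day replicate 2, Cdkn1b passed at −0.53 (adjusted p = 0.039) and Cdkn2d at 0.63 (adjusted p = 0.03), and without AE untreated 3-day replicate 1, Gadd45g passed at −3.30 (adjusted p = 0.0036). Without both replicate 2 libraries of the 3-day AE groups, Cdkn1b passed at −0.55 (adjusted p = 0.037) and Cdkn2a did not, at −1.15 (adjusted p = 0.085).

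Set side by side per kilobase of transcript, untreated levels in WT were 86.5 ± 17 CPM per kilobase for Cdkn1a, 28.9 ± 12 for Cdkn1b and 20.2 ± 2.9 for Cdkn2c (mean ± SD, n = 4), the latter pair within their spread. Next came Gadd45b at 11.3 ± 3.4, Cdkn2b at 10.5 ± 1.8, Cdkn2a at 9.97 ± 6.3 and Cdkn2d at 8.4 ± 2. After them came Gadd45a at 5.03 ± 1.6 and Gadd45g at 4.45 ± 2.9. The range of mean ± SD of each of these overlapped that of its neighbours among them. In AE the order began with the same 4 genes, Cdkn1a at 41.7 ± 17, Cdkn1b at 22 ± 4.8, Cdkn2c at 20.9 ± 3.3 and Gadd45b at 12.6 ± 4.8. The ranges of Cdkn1a and Cdkn1b overlapped, as did those of Cdkn1b and Cdkn2c. Cdkn1a was still above Cdkn1b in each untreated AE library, at 51.9% or more of the summed Cip/Kip level against 42.9% or less. Then came Cdkn2d at 11.1 ± 1.1, Gadd45a at 8.04 ± 1.8, Cdkn1c at 4.76 ± 2.4, Cdkn2b at 4.47 ± 0.85, Cdkn2a at 3.47 ± 1.2 and Gadd45g at 1.65 ± 1.6. The range of Cdkn2d overlapped that of Gadd45b, and the range of each of the last 5 that of a neighbour.

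The partners of these inhibitors gave more calls with TGFb than with Wnt3a. Of 15 cyclin and CDK genes tested, 7 fell and 1 rose with TGFb in WT, where 12.9% of all genes fell and 14.7% rose. In AE 6 fell and 1 rose, against 4.32% and 6.09% of all genes. Cdk1, the mitotic kinase, went from 331 ± 22 to 26.5 ± 3.5 CPM in WT and from 178 ± 3.1 to 80.5 ± 3 CPM in AE (mean ± SD, n = 2). Ccnd2, which encodes cyclin D2, was the one that rose, from 2.12 ± 0.13 to 84.7 ± 5.5 CPM in WT and from 7.44 ± 2.2 to 35.3 ± 2.3 CPM in AE. With Wnt3a in WT, where 2.26% of all genes rose and 2.02% fell, Ccnd2 was again the 1 gene to pass by edgeR, at 10.2 ± 5.4 against 1.73 ± 0.12 CPM. There 2 of the 15 were up and 4 down at an unadjusted p under 0.05, and DESeq2 called 1 up and 4 down. With Wnt3a in AE, where 4.59% of all genes rose and 4.74% fell, edgeR called 0 of the 15. There 3 had an unadjusted p under 0.05 and DESeq2 called 1.

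Of the 15 pocket protein and E2F genes, 8 fell and 1 rose with TGFb in WT, 2 fell in AE and 3 fell with Wnt3a in WT. Of all genes, 12.9% fell and 14.7% rose with TGFb in WT, 4.32% fell in AE and 2.02% fell with Wnt3a in WT. DESeq2 called 4 of the 15 down with TGFb in AE and 7 down with Wnt3a in WT. With Wnt3a in AE, where 4.59% of all genes rose and 4.74% fell, edgeR called 0 of the 15. There 3 had an unadjusted p under 0.05 and DESeq2 called 2. E2f8, a repressor E2F of S phase, went from 69.2 ± 3.7 to 2.06 ± 0.13 CPM with TGFb in WT and from 38.5 ± 0.61 to 12.3 ± 0.72 CPM in AE. Of the 14 Gadd45 partners, 5 fell with TGFb in WT and 4 in AE, against 12.9% and 4.32% of all genes. Among them was Pcna, the sliding clamp of DNA replication, at 215 ± 6.7 to 41.1 ± 1.4 CPM in WT. Cdk1 and Ccnb1 are in this list as well as among the cyclins and CDKs above, and both fell with TGFb in both lines. Of all genes, 2.26% rose and 2.02% fell with Wnt3a in WT, and 4.59% and 4.74% in AE. At such shares 0 calls says little about a list of this size. No gene of the Gadd45 partner list passed with Wnt3a in either line by edgeR. In WT 3 had an unadjusted p under 0.05 and DESeq2 called 2, and in AE the numbers were 2 and 0. The proliferation markers likewise had 0 calls with Wnt3a by edgeR, against the same shares of all genes. Of these markers, 5 had an unadjusted p under 0.05 and DESeq2 called 5 in WT, and in AE the numbers were 1 and 0.

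Of 30 tested regulators of CDK inhibitor genes, 4 rose and 5 fell with TGFb in WT, 3 rose and 1 fell in AE, 1 rose and 1 fell with Wnt3a in WT, and 4 rose and 1 fell in AE. For all genes the shares rising and falling were 14.7% and 12.9%, 6.09% and 4.32%, 2.26% and 2.02%, and 4.59% and 4.74%. Mdm2, a p53 target that restrains p53, rose with TGFb in WT from 344.2 ± 3.7 to 657 ± 22 CPM and in AE from 80.9 ± 2.2 to 261 ± 14 CPM. Wnt3a raised it in AE from 133 ± 47 to 354 ± 60 CPM, and in WT it was at 377.8 ± 100 untreated and 766 ± 140 CPM treated (adjusted p = 0.052). Klf4, a factor known to activate Cdkn1a, rose with Wnt3a in AE from 2.13 ± 1.4 to 44.8 ± 10 CPM. With TGFb it fell in WT from 90.3 ± 5.3 to 26.7 ± 4.3 CPM (adjusted p = 0.0084). A link between Klf4 and the Cdkn1a values was not tested. In AE TGFb raised Klf4 from 2.43 ± 0.67 to 7.87 ± 1.1 CPM (adjusted p = 0.033). With Wnt3a in WT Klf4 was at 108 ± 54 untreated and 84.4 ± 16 CPM treated (adjusted p = 0.6). Untreated, Klf4 was lower in AE than in WT (−5.43 ± 0.36, adjusted p = 1.3e-07). It was the 1 regulator whose Wnt3a response differed between the lines (4.74 ± 0.63, adjusted p = 0.0029). Trp63, the p53 relative of basal epithelium, fell in WT from 36.1 ± 5.4 to 1.55 ± 0.1 CPM with TGFb and from 82.7 ± 23 to 8.32 ± 4.6 CPM with Wnt3a. In AE it fell with Wnt3a from 14 ± 0.38 to 3.75 ± 1.7 CPM, and with TGFb it was at 15 ± 1.9 and 10.6 ± 0.83 CPM (adjusted p = 0.53). In untreated cells 5 of the 30 were higher and 11 lower in AE, against 27.4% and 26.4% of all genes, with the smallest p in Tbx3, a repressor of Cdkn2a (−7.61 ± 0.38, adjusted p = 1.5e-08).

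Some genes followed the members closely over the 8 group means of log2(CPM + 0.5), among 10560 genes with a mean of at least 5 CPM. For Cdkn1a these were Inka2, Htra1 and Nrp1, with Pearson's r of 0.979, 0.979 and 0.972. For Cdkn2b they were Lrrc28, Rab34 and Alg5, at 0.987, 0.985 and 0.979. For Gadd45a they were Ypel1, Ctns and Fam214a, at 0.982, 0.978 and 0.967. Ctns, the lysosomal cystine transporter, was at 288 CPM in AE after Wnt3a and at 33.3 to 117 CPM in the other 7 groups. These are descriptions over 8 points that share the same libraries, picked as the highest of many.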

How the data were processed

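The authors deposited 1 table of counts per gene for all 16 libraries, whole numbers that sum to 20530538 to 26191846. Per the labels' protocols, 200 ng of RNA was poly(A)-selected, prepared with a stranded kit and read as single reads of 75 bases, and per the submitters' processing notes reads were aligned with STAR to mm10. For the counting tool and strand setting, the sources used here give nothing.

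Here 13172 of 19665 genes with at least 1 CPM in at least 2 libraries were tested with edgeR 4.0.16 in R 4.3.3 (TMM scaling, quasi-likelihood test, 1 mean for each of 8 groups, 7 contrasts, 8 residual degrees of freedom, Benjamini-Hochberg adjustment over all genes, threshold 0.05). The SE is the log2 fold change divided by the square root of F. Totals of this size leave counting error small beside the spread between duplicates for all but the lowest values, and a count of 0 allows up to 3 counts. Levels between genes were divided by the longest GENCODE M21 transcript. Gene positions are RefSeq's. Cdkn1c has no fold change in WT or between the lines' responses.

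The named genes are the 10 members in every comparison, from each context list at most 3 passing genes per comparison with the smallest p, and the 3 genes most like Cdkn1a, Cdkn2b and Gadd45a. Members and lists were chosen with earlier results of these data known. The script was tested on simulated data. Alternatives were other scaling, filters, DESeq2 1.42.0, limma 3.58.1, a replicate block, a correction for GC content and length (12692 genes, 96.4%), 1 experiment alone and each library left out.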

Additional observations from a re-analysis of the deposited data

Results flagged for a closer look

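Cdkn1a in the 4 untreated AE libraries had 1 library away from the others, at 139.8 CPM in the 3-day untreated replicate 1 against 65.6 to 71.6 CPM. The gap to the next library was 0.918 of the range, above the critical value of 0.829 for 4 samples. In all, 19 such groups were examined, and chance alone marks about 1 in 20. The Cdkn2c response to TGFb differed between the lines by 3.52 on the log2 scale, as the interaction test above gives it. The Gadd45a response to Wnt3a differed between the lines by 2.42 on the log2 scale by the same test.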

How the results depend on the processing

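The TGFb calls of Cdkn1a, Cdkn2b and Gadd45a in both lines, of Cdkn2c and Cdkn2d in WT, the Wnt3a calls of Cdkn2b in both lines and of Cdkn1a and Gadd45a in AE, and the Cdkn2c difference held in every alternative run for them.

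The number of genes passing moved most. With the GC content and length correction it was 5569 for TGFb in WT (3634 in the reported fit), 2962 for TGFb in AE (1371), 1801 for Wnt3a in WT (564), 2286 for Wnt3a in AE (1229), 2265 for the TGFb difference (1163) and 856 for the Wnt3a difference (308), with 3 and 2 of the 10 genes passing in the differences. The replicate block with the same correction gave 5563, 2954, 1718, 2264, 2238 and 845, and 3 and 2. With 1 experiment fitted alone the numbers were 7213, 4517, 20, 357, 3890 and 8, with 1 of the 10 genes for Wnt3a in WT and 5 and 0 for the differences. DESeq2 gave 1291 for Wnt3a in WT and 703 for the Wnt3a difference (3 of the 10), and limma gave 682 for that difference. For the TGFb difference limma gave 2 of the 10, which were Cdkn2c and Cdkn1c. Cdkn1c had 0 counts in the WT libraries of the 4-day experiment, so its call adds no support. The 3-day untreated libraries alone gave 1844 genes and 1 of the 10 between the lines, against 7082 and 5. Without both replicate 2 libraries of the 3-day AE groups, a choice made after seeing the data, Wnt3a in AE gave 475 and the Wnt3a difference 106. The causes were not tested.

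Leaving out 1 library gave 2101 to 2363 genes for TGFb in WT (6 to 7 of the 10), 352 to 459 for TGFb in AE (3 to 3), 281 to 3139 for Wnt3a in WT (2 to 6), 577 to 1158 for Wnt3a in AE (3 to 4), 5705 to 8317 between the untreated lines (4 to 6), 637 to 717 for the TGFb difference (1 to 1) and 114 to 1897 for the Wnt3a difference (1 to 2). Groups left with 1 library were assumed to vary like the others.

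Replicate numbers do not pair the samples by any label. The replicate block alone gave 3543, 1329, 552, 1223, 7018, 1143 and 274 genes in the order of the 7 comparisons and changed no call of the 10. Between WT and AE untreated groups the deviations of same-numbered libraries correlated at −0.18 and −0.47, and within a line and experiment at 0.17 to 0.65. The block was a term shared by both lines, so it cannot take up a replicate effect that runs opposite ways in them. A block within each line was not run, so the unchanged calls do not settle whether pairing matters.

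Signs that turned belonged, other than for Gadd45a between the untreated lines, to values that had not passed. With the GC correction they were Cdkn1b with Wnt3a in AE (−0.06, −0.07 with the block), Cdkn2c, Cdkn2d, Gadd45a and Gadd45b between the untreated lines (−0.27, −0.16, −0.30 and −0.64, with the block −0.27, −0.16, −0.25 and −0.64), Gadd45a in the TGFb difference (0.20 and 0.19), and Cdkn2a, Cdkn2b and Cdkn2d in the Wnt3a difference (0.34, 0.61 and 0.18, with the block 0.35, 0.62 and 0.20). Gadd45g with Wnt3a in AE was −0.06 under the replicate block alone and −1.0 without both replicate 2 libraries of the 3-day AE groups, where Cdkn2c between the untreated lines was −0.09. With the 4-day untreated libraries alone Cdkn1b was 0.02 and Cdkn2c −0.09. Leaving out 1 library at a time, values crossed 0 for Cdkn2d with Wnt3a in WT (−0.88 to 0.08), Cdkn1b (−0.32 to 0.53), Cdkn2c (−0.43 to 0.11), Gadd45b (−1.34 to 0.24) and Gadd45g (−0.75 to 4.28) with Wnt3a in AE, Cdkn2c (−0.09 to 0.18) and Gadd45b (−0.31 to 0.48) between the untreated lines, Gadd45g in the TGFb difference (−1.14 to 0.28), and Cdkn2a (−1.57 to 0.33), Cdkn2b (−0.35 to 0.26), Cdkn2d (−0.84 to 0.13) and Gadd45g (−3.06 to 1.97) in the Wnt3a difference. Depth limits Cdkn1c in WT, where no library held more than 1 count. In AE, Gadd45g held 3 counts in untreated 3-day replicate 2 and 104 in replicate 1. Their totals were 23386602 and 23894290 counts, so that gap is spread between duplicates.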
